A study of Gallus gallus with 6 samples.

Results

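The levels of 8 transcription factor genes were followed in chick forelimb buds that had received a bead of fibroblast growth factor 2 (FGF2). They were the spalt-like zinc finger genes SALL1, SALL3 and SALL4, the AP-2 genes TFAP2A, TFAP2B and TFAP2C, the SET-domain repressor gene PRDM1 and the MYC family gene MYCN. All probe sets whose platform gene symbol was exactly one of these names were taken, which gave 11 probe sets for 8 genes, of 38439 probe sets in all. SALL1, SALL4 and MYCN had 2 probe sets each and the other genes had 1. The set was put together with earlier results of these arrays known, and SALL1, SALL3, SALL4 and TFAP2C had been named by the study from the same arrays, so their directions are not independent evidence. The 8 genes share the rule that chose them and no common direction, since TFAP2A and TFAP2B were lower and PRDM1 was at background.

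Beads of heparin acrylic were soaked in recombinant human FGF2 or, as the control, in phosphate-buffered saline (PBS) and were placed in the posterior forelimb mesoderm of Gallus gallus embryos at Hamburger-Hamilton stage 23, about 500 µm from the distal tip. After 24 h, at stage 25, the tissue surrounding the bead was taken. There were 6 arrays, 3 PBS and 3 FGF2, and each carried the RNA of a pool of embryos. The study pooled embryos for each treatment and repeated the experiment 3 times on separate days. Which arrays share a day is not in the labels, and the main fit did not pair them. Its p-values thus measure the spread between pools and days together. Treatment, with the bead's content, was the difference between the groups, and the dissected tissue was a mixture of cell types, so that fewer cells of a type and less RNA per cell cannot be told apart. Values were deposited on what the range points to as a log2 scale, and a difference of 1 is a doubling.

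SALL proteins carry pairs of C2H2 zinc fingers and recruit the NuRD histone deacetylase complex to repress genes. In the limb bud they mark undifferentiated mesenchyme beneath the apical ectodermal ridge, the distal epithelium that secretes FGFs, and in the mouse Sall4 works with Tbx5 in the early limb. AP-2 proteins bind GC-rich sites as dimers and are best known in surface ectoderm, neural crest and placenta. MYCN drives growth and division of embryonic progenitors, and PRDM1, known as Blimp1 in the mouse, represses genes in plasma cells, germ cell precursors and the apical ridge.

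The arrays were close to each other as a whole, with medians of 4.75 to 4.81. Over all probe sets 4 of 38439 passed an adjusted p of 0.05 between FGF2 and PBS (limma with Benjamini-Hochberg adjustment). All 17 listed genes of limb mesenchyme lay above background, taken as the 95th percentile of 3.57 of 746 probe sets whose names lie outside the chicken naming. HOXD11 and PRRX1, the brightest of them by the mean over all 6 arrays, had means of 13.77 and 13.21. Macrophage and lymphoid markers, a list that also held the avidin gene AVD, differed with the treatment as well. Of the 15 genes 13 were higher, beside 5927 of all 13009 genes. The median log2 fold change of the 15 was 0.60. Their mean level was 5.47 to 5.73 on PBS and 6.52 to 7.01 on FGF2 arrays, and it includes AVD, the largest measured difference of the list at 6.20. The part of these cells in the values below was not tested.

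SALL1, SALL3 and SALL4 were all higher around FGF2 beads, on each of their 5 probe sets. SALL1, the gene mutated in human Townes-Brocks syndrome with its thumb and kidney defects, read 11.17, 10.09 and 11.22 on the PBS arrays and 11.62, 12.39 and 12.11 on the FGF2 arrays. The groups did not overlap, and PBS replicate 2 stood 1.08 below the nearest other PBS array. The means of 10.83 ± 0.639 and 12.04 ± 0.391 (SD, n = 3) differed by 1.21 ± 0.375 (log2 fold change with SE), a 2.32-fold difference with an adjusted p of 0.479. It was 0.84 without PBS replicate 2. The second probe set of SALL1 read 3.70, 2.61 and 3.11 against 4.18, 5.92 and 5.19, again without overlap. Its PBS mean of 3.14 lay under the background limit, as did 2 of the 3 PBS arrays, so its size is given as at least 2.69-fold, against each array's own background limit where the value was lower. The measured log2 difference was 1.96 ± 0.516 (SE; adjusted p = 0.427).

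SALL3, a close relative of SALL1 with which it acts redundantly in mouse limbs, had PBS values of 7.08, 6.36 and 7.16 and FGF2 values of 8.09, 8.54 and 7.88. The gap between the groups was 0.72, the widest of the 11 probe sets, and PBS replicate 2 was again the lowest array. The log2 fold change was 1.30 ± 0.278 (SE), which is 2.47-fold, with an adjusted p of 0.346, and 1.05 without PBS replicate 2.

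SALL4, the family member of stem and progenitor cells, had the smallest SE of the SALL genes. Its dimmer probe set read 7.37, 7.44 and 7.22 on PBS and 8.18, 8.43 and 8.11 on FGF2 arrays. Each FGF2 array lay at least 0.67 above each PBS array, where the PBS arrays spanned 0.23 and the FGF2 arrays 0.31. The log2 fold change of 0.90 ± 0.102 (SE) had the smallest p of all members, ranking 52 of 38439 probe sets, and an adjusted p of 0.165. The adjusted p was 0.0488 when the dimmer part of the array was left out of the fit. The brighter SALL4 probe set, of a class that can match more than one transcript, read 8.01, 7.97 and 8.12 against 8.90, 9.31 and 8.54. It gave 0.89 ± 0.198 (SE; 1.85-fold, adjusted p = 0.363), so that both probe sets put SALL4 at about the same change.

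**Figure D1:**
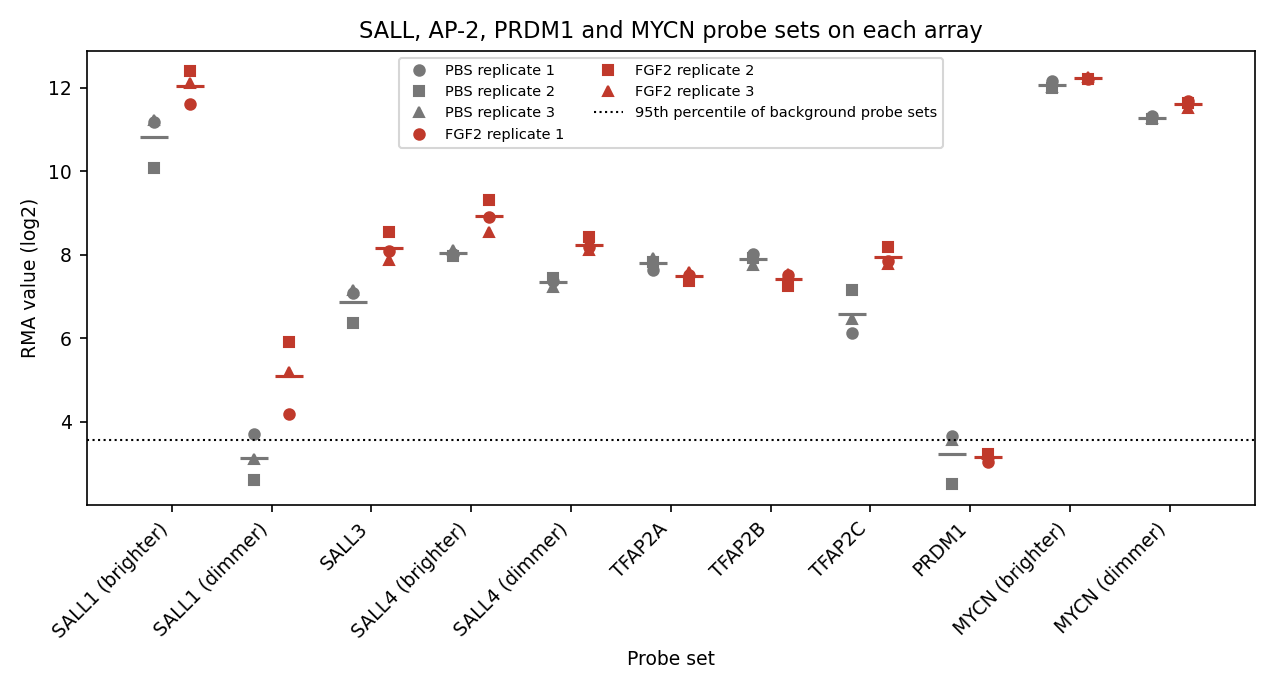
RMA values (log2, y axis) of the 11 probe sets (x axis) on each of 3 PBS arrays (grey) and 3 FGF2 arrays (red), with group means as short lines and the 95th percentile of background probe sets, 3.57, as a dotted line. The groups do not overlap for 10 probe sets, and both PRDM1 means lie under that line.

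The AP-2 genes differed in direction: TFAP2C was higher around FGF2 beads, whereas TFAP2A and TFAP2B were lower. TFAP2C, the AP-2 gene of the distal mesenchyme under the apical ridge in the chick, read 6.12, 7.15 and 6.47 on PBS and 7.85, 8.18 and 7.79 on FGF2 arrays. The FGF2 arrays spanned 0.40 and the PBS arrays 1.04, with PBS replicate 2 the nearest to the FGF2 group. The means of 6.58 ± 0.527 and 7.94 ± 0.214 (SD, n = 3) gave a log2 fold change of 1.36 ± 0.285 (SE), or 2.56-fold, with an adjusted p of 0.341. With 1 array left out the log2 fold change lay between 1.13, without PBS replicate 1, and 1.65, without PBS replicate 2. TFAP2C ranked 53, SALL3 63 and the SALL1 probe sets 24 (the dimmer one) and 74 among 38439 probe sets ordered from the highest log2 fold change.

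TFAP2B, an AP-2 gene of neural crest, kidney and face, read 8.01, 7.93 and 7.77 on PBS and 7.51, 7.25 and 7.53 on FGF2 arrays. All FGF2 values lay under all PBS values, by at least 0.23. The log2 fold change was -0.47 ± 0.102 (SE), which is 1.39-fold lower, with an adjusted p of 0.346. TFAP2A, which specifies neural crest and surface ectoderm, read 7.64, 7.82 and 7.92 against 7.52, 7.38 and 7.58. The groups were 0.06 apart, less than the span of either, and the log2 fold change was -0.30 ± 0.090 (SE; 1.23-fold lower, adjusted p = 0.464).

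Markers of neural crest, Schwann cells and melanoblasts mostly lay in the same direction as TFAP2A and TFAP2B. Of 12 measured genes 10 were lower, beside 7082 of all 13009 genes with a symbol. The mean level of the 12 was 6.03 to 6.35 on PBS and 5.73 to 5.98 on FGF2 arrays. The median log2 fold change was -0.04, and -0.47 without dim probe sets. It was -0.012 without PBS replicate 2 and FGF2 replicate 2. The endothelin receptor gene EDNRB and the crest factor gene FOXD3 gave log2 fold changes of -0.99 ± 0.271 and -0.64 ± 0.215 (SE; adjusted p = 0.442 and 0.509). SOX10, the defining factor of Schwann precursors, read 8.32, 9.07 and 8.25 on PBS and 8.14, 7.12 and 8.05 on FGF2 arrays, and is named here after its values were seen. Among the 10 lower genes 4 were at background. These were the pigment genes TYR, TYRP1 and DCT and the nerve growth factor receptor gene NGFR, at -0.02 to -0.04. Without PBS replicate 2 and FGF2 replicate 2, EDNRB gave -0.615 and FOXD3 -0.299. The 2 higher genes, SOX8 and ETS1, were the brightest of the list and gave 0.03 each.

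Markers of surface ectoderm, the other tissue rich in TFAP2A, were divided. Of 17 measured markers 10 were higher and 7 were lower. Their median difference was 0.05 on the log2 scale, and their mean level was 6.85 to 6.87 on PBS and 6.90 to 7.12 on FGF2 arrays. The epithelial adhesion gene EPCAM gave 0.06 and the tight junction gene CLDN1 0.36, while SP8, a zinc finger factor of the apical ridge, gave 1.17 ± 0.272 (SE; adjusted p = 0.372). KRT5, ESRP1 and FGF8 lay at background. The part of crest and ectoderm cells in the AP-2 values was not tested.

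The difference between TFAP2C and its relatives was taken within each array. Its size on an array depends on both probe sets, so only its shift between the groups is compared. TFAP2C minus TFAP2A went from -1.52, -0.67 and -1.45 on PBS to 0.33, 0.80 and 0.21 on FGF2 arrays, a shift of 1.66. TFAP2C minus TFAP2B went from -1.89, -0.78 and -1.30 to 0.34, 0.94 and 0.26, a shift of 1.83. In both, the groups did not overlap and the exact permutation test gave a two-sided p of 0.1 (0.133 after Benjamini-Hochberg adjustment over 4 comparisons). A p of 0.1 is the smallest that 3 arrays against 3 can give. TFAP2C was already higher, and TFAP2A and TFAP2B lower, without overlap, so this outcome was fixed and is no further evidence. By its brighter probe set SALL4 shifted less than SALL3 by 0.42, with SALL4 minus SALL3 at 0.92, 1.61 and 0.96 on PBS and 0.82, 0.78 and 0.66 on FGF2 arrays (exact p = 0.1, adjusted p = 0.133). This shift was -0.19 without PBS replicate 2, and the exact p was 0.3 without any 1 of the FGF2 arrays. SALL4 minus SALL1 shifted by -0.33 with overlapping groups (exact p = 0.6, adjusted p = 0.6). That shift became 0.010 without PBS replicate 2, so no order between SALL4 and SALL1 was measured.

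**Figure D2:**
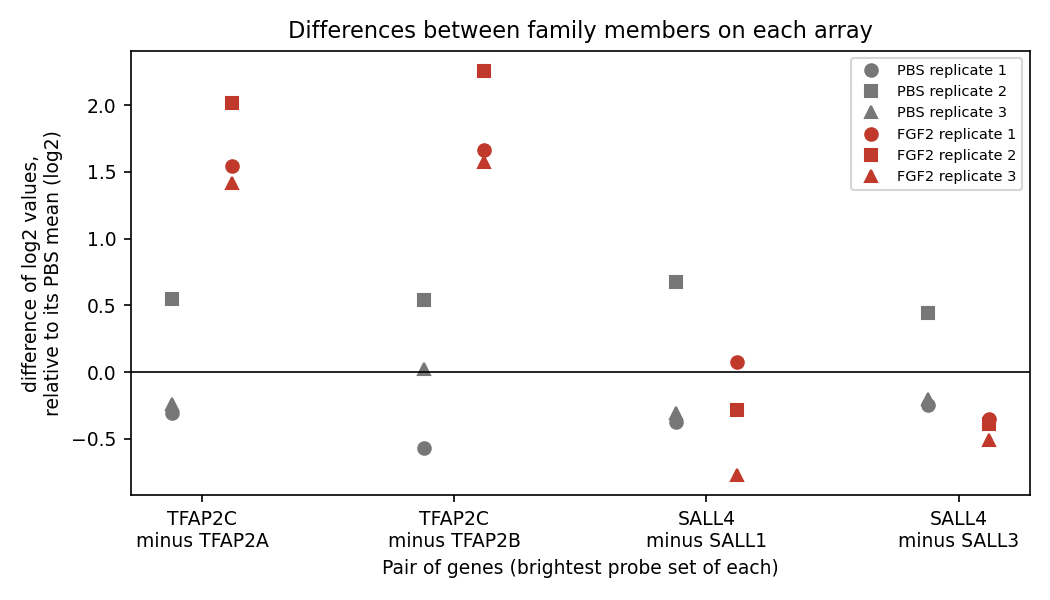
Difference between the log2 values of 2 genes on the same array, relative to the mean of that difference on the PBS arrays (y axis, log2), for 4 pairs (x axis), with PBS arrays in grey and FGF2 arrays in red. The FGF2 arrays stand 1.66 and 1.83 above the PBS mean for TFAP2C against TFAP2A and TFAP2B, and the groups overlap for SALL4 against SALL1.

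MYCN was bright on every array and slightly higher around FGF2 beads on both probe sets. The brighter one read 12.15, 12.0004 and 12.01 on PBS and 12.20, 12.21 and 12.26 on FGF2 arrays. The groups were 0.05 apart, and the log2 fold change, the smallest of the 10 probe sets without overlap, was 0.17 ± 0.050 (SE; 1.12-fold, adjusted p = 0.464). The other probe set, of a class that can match more than one transcript, read 11.32, 11.25 and 11.28 against 11.68, 11.63 and 11.51. There the gap of 0.19 was wider than the span of either group, and the log2 fold change of 0.33 ± 0.051 (SE; 1.25-fold) had an adjusted p of 0.252.

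Genes that MYC proteins are known to activate lay near 0 beside MYCN. Of 25 measured targets 17 were higher and 8 were lower. Their median was 0.02 on the log2 scale, beside -0.01 over all 13009 genes with a symbol. Each target was read by its brightest probe set. For AMD1, which the study listed as higher at 24 h, that probe set had an unadjusted p of 0.086 (limma). By these probe sets 1 target passed an unadjusted p of 0.05, which is 4% of the 25, beside 12.4% of all genes. That gene was CCND1, the G1 cyclin, at 0.21 ± 0.072 (SE; adjusted p = 0.515), and AMD1, an enzyme of polyamine synthesis, gave 0.19, the nucleolar gene NOLC1 0.15 and the pyrimidine synthesis gene CAD -0.07. MYC itself read 9.95, 10.16 and 9.89 on PBS and 9.66, 9.67 and 10.08 on FGF2 arrays, with overlapping groups and a log2 fold change of -0.20 ± 0.140 (SE; adjusted p = 0.644).

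PRDM1 was the one member with both group means at background. It read 3.65, 2.51 and 3.56 on PBS and 3.03, 3.22 and 3.24 on FGF2 arrays, and the means of 3.24 and 3.16 lay under the background limit of 3.57. The log2 fold change was -0.08 ± 0.324 (SE; adjusted p = 0.883), with a 95% interval of -0.89 to 0.74. A change of PRDM1 inside that interval could not have been told from none with this probe set.

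**Figure D3:**
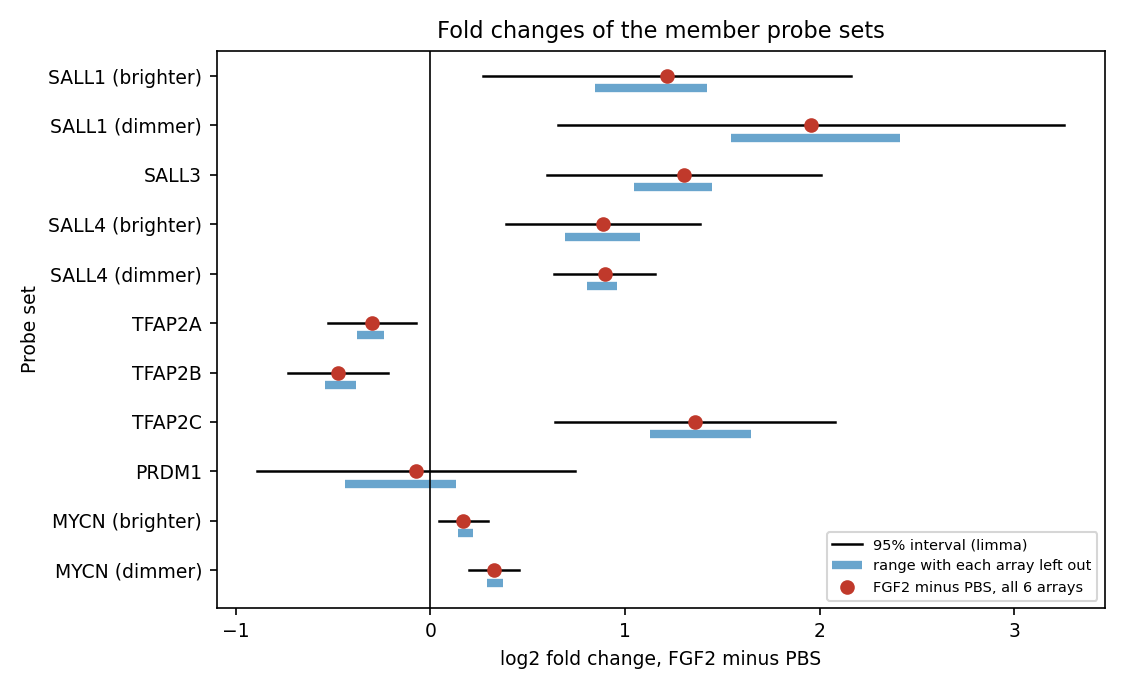
Log2 fold change of FGF2 over PBS (x axis) for each probe set (y axis), with the 95% interval of limma (black) and the range with each of the 6 arrays left out in turn (blue). SALL and TFAP2C probe sets lie between 0.89 and 1.96, MYCN at 0.17 and 0.33, TFAP2A and TFAP2B at -0.30 and -0.47, and the range of PRDM1 crosses 0.

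No member passed an adjusted p of 0.05 over all probe sets in limma, where 0.0104% of all probe sets did. At an unadjusted p under 0.05, the threshold of the study's methods, 8 of the 11 member probe sets were higher, beside 5.6% of all probe sets, and 2 were lower, beside 3.33%. The FGF2 values lay above the PBS values without overlap in 8 member probe sets and below in 2, beside 6.53% and 5.84% of all probe sets. PRDM1 was the exception in both counts. Since the members had been brought together with results in view, these counts describe them and are no test of the group.

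Differences between arrays of one group were shared by several members. FGF2 replicate 2 was the FGF2 array farthest from the PBS group in 8 of 11 member probe sets, and in 62.9% of all probe sets. It was the highest for SALL1, SALL3, SALL4 and TFAP2C and the lowest for TFAP2A and TFAP2B. PBS replicate 2 was the PBS array farthest from the FGF2 group in 6 of 11, and in 57.2% of all probe sets. Without both of these arrays the log2 fold change was 0.67 and 1.28 for SALL1 (brighter and dimmer probe set), 0.86 for SALL3, 0.66 and 0.85 for SALL4, 1.52 for TFAP2C, -0.37 for TFAP2B, -0.23 for TFAP2A, and 0.15 and 0.30 for MYCN. The members past an unadjusted p of 0.05 were then 6 higher probe sets, and TFAP2B and PRDM1 (-0.47) as the 2 lower ones.

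Of 12 other measured genes of the same families 7 were higher and 5 were lower. These 12 were PRDM family genes, MYC and TFAP2E, with no further SALL gene. Their median was 0.09 on the log2 scale, and -0.0027 without PBS replicate 2 and FGF2 replicate 2. MECOM, a PRDM family gene also known as EVI1, read 12.61, 12.26 and 12.54 against 12.80, 12.91 and 12.71 and gave 0.34 ± 0.106 (SE; adjusted p = 0.480). PRDM16 gave 0.39 with overlapping groups, and is named after its values were seen. PRDM4 gave 0.18 ± 0.052 (SE; adjusted p = 0.455) and PRDM10 0.19. Of the 5 lower genes 4, TFAP2E, PRDM6, PRDM8 and PRDM12, were at background.

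Genes of proteins that bind the members or control them were mostly higher. KCTD1, which binds AP-2 proteins and blocks their activity, read 10.26, 10.47 and 10.46 on PBS and 10.86, 10.99 and 10.70 on FGF2 arrays, a log2 fold change of 0.46 ± 0.094 (SE; adjusted p = 0.333). Its relative KCTD15, which restrains TFAP2A in zebrafish and is named here as a gene most like SALL1, gave 0.31 ± 0.121 (SE; adjusted p = 0.549). The Groucho genes TLE1 and TLE4 gave 0.43 and 0.15, with TLE3 at -0.18. FBXW7, the ubiquitin ligase subunit that marks MYC proteins for destruction, read 10.49, 10.50 and 10.47 against 10.63, 10.63 and 10.64 and gave 0.15 ± 0.021 (SE; adjusted p = 0.233). Of the 29 measured cofactors 23 were higher and 6 were lower, beside 5927 higher of all 13009 genes. The median of the cofactors was 0.09 on the log2 scale, and 0.034 without PBS replicate 2 and FGF2 replicate 2. Past an unadjusted p of 0.05, 1011 of all 13009 genes were higher and 597 were lower, together 12.4%. Of the cofactors 8 passed it, all of them higher, which is 27.6%, and CITED4 among them was at background with a mean of 2.72. These shares cover sets of unlike level, since 27 of 29 cofactors lay above background, beside 9918 of all 13009 genes. The acetyltransferase gene CREBBP, named after its values were seen, was the farthest from 0 at 0.79, with overlapping groups.

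Genes that work with SALL factors in limbs of mouse, fish or chick were divided, with 9 of 18 higher and the other 9 lower. FGF10, the mesenchymal ligand that sustains the apical ridge and lies downstream of Tbx5 and Sall4 in the mouse, read 8.56, 8.12 and 8.33 on PBS and 8.96, 9.13 and 8.91 on FGF2 arrays. Its log2 fold change was 0.66 ± 0.125 (SE; adjusted p = 0.307), and WNT5A, a ligand of the distal tip, gave 0.66 as well. The distal homeobox gene HOXA13 was at background on all PBS arrays and at least 9.79-fold higher on FGF2 arrays, and the anterior repressor ALX4 gave -0.76, while TBX5 itself gave -0.16 ± 0.097 (SE; adjusted p = 0.644), with FGF2 values under PBS values. The median of this list was 0.07, but 0.34 without dim probe sets and -0.070 without those that can match several transcripts. Past an unadjusted p of 0.05 there were 6 genes higher and 2 lower, together 44.4% beside 12.4% of all genes. SHH, among the higher ones, lay at background on every array except FGF2 replicate 2, where it read 4.58. Of the genes past that threshold HOXA13, HOXD13, WNT5A, SHH, MEIS2 and ALX4 had been named by the study from the same arrays. The share is thus no independent evidence about genes that work with SALL factors.

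**Figure D4:**
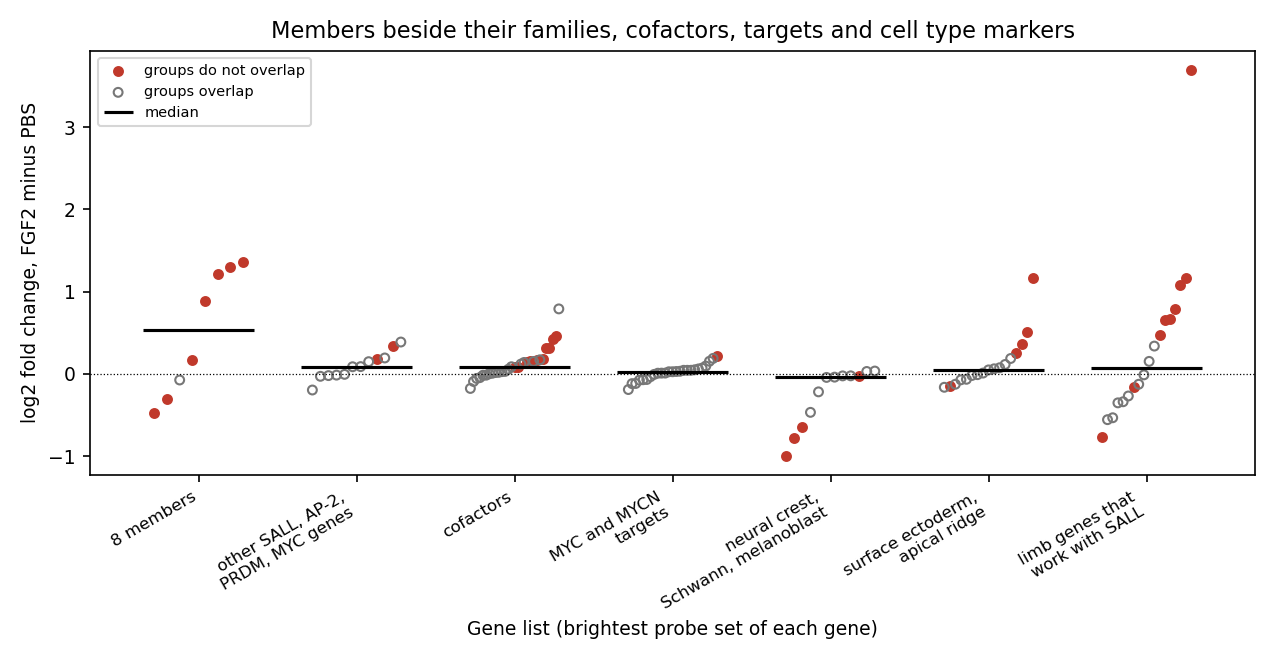
Log2 fold change of FGF2 over PBS (y axis) for the brightest probe set of each gene in 7 lists (x axis), red where the groups do not overlap and open where they do, with the list's median as a line. The 8 members, gathered with results in view, have a median of 0.53. The median is 0.09 for other family genes, which are PRDM family genes, MYC and TFAP2E. It is 0.09 for cofactors, 0.02 for MYC and MYCN targets and -0.04 for crest markers.

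For each member the genes with the most similar course over the 6 arrays were sought among 9252 genes above the median level, with Pearson's r as the measure. The limb mesenchyme homeobox gene PRRX2 followed SALL1 with r of 0.999, and DPYSL3, a cytoskeletal protein of growing axons, followed SALL3 with 0.995. The glutamine synthetase gene GLUL was nearest to SALL4 with 0.996, FAM222B to TFAP2C with 0.994, UCHL3 to TFAP2A with 0.991, MADD to TFAP2B with 0.997, HOXA3 to MYCN with 0.992 and HIVEP2 to PRDM1 with 0.989. With 6 arrays and so many genes an r above 0.9 is common, and 79 to 433 genes had one with a given member. The genes named had the highest r of the 9252 and describe likeness on these arrays.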

How the data were processed

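RNA from tissue around PBS or FGF2 beads was measured on 6 Affymetrix Chicken Genome arrays, 3 per group, grouped by the titles in the labels. The authors deposited 1 table of log2 values made by Robust Multi-array Averaging (RMA), a method that subtracts background, gives all arrays the same distribution and sums up each probe set; its version and log base are not given in the sources used here, and the highest value of 15.95 points to log2. Scanner files were not analysed here. Of 38535 probe sets, 96 controls were left out and no filter on low values was applied. The platform annotation gave 27168 probe sets 1 symbol. The groups were compared by lmFit and eBayes (limma 3.58.1, R 4.3.3). Tests were two-sided, and p-values were adjusted over all 38439 probe sets after Benjamini and Hochberg. A gene with several probe sets is represented by the brightest in lists, likeness and differences between genes. The number of arrays limits the precision.

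The members, lists and alternatives were chosen with earlier results of these data known. Every member was named with each probe set; of each list, the 4 genes of smallest p (for cell types, the 2 brightest and 2 of smallest p); further genes were named after their values were seen. Results were recomputed with a replicate block, each array left out, quantile normalization again, median centring, no dim probe sets, a variance trend, array weights, no probe sets that can match several transcripts, gene means and other thresholds. Cyclic loess and leaving out PBS replicate 2 and FGF2 replicate 2 together were added after seeing the data.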

Additional observations from a re-analysis of the deposited data

How the results depend on the processing

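All 11 member probe sets kept their direction under every alternative except PRDM1, whose log2 fold change lay between -0.44 and 0.13 with each array left out, was -0.47 without PBS replicate 2 and FGF2 replicate 2, and turned without PBS replicate 1 (0.13) and PBS replicate 3 (0.08). None passed an adjusted p of 0.05 with any single array left out. The count of members called was 1 without dim probe sets (SALL4, 0.90), where 40 of 19219 probe sets were called. It was 5 with array weights, where 2256 of 38439 probe sets were called. These 5 had log2 fold changes of 0.98 and 1.91 for SALL1, 0.84 for the dimmer SALL4 probe set, 1.42 for TFAP2C and 0.23 for the dimmer MYCN probe set. At an unadjusted p under 0.05 the count of members was 10, beside 3433 of 38439 probe sets. The fold changes are those of the full fit (1.21, 1.96, 1.30, 0.89, 0.90, -0.30, -0.47, 1.36, 0.17 and 0.33). With each array left out 6 to 8 member probe sets were higher and 1 to 2 lower at that threshold. The lower count was 1 without FGF2 replicate 2, where TFAP2A gave -0.25 with an unadjusted p of 0.0538 (limma). Without PBS replicate 2 TFAP2A gave -0.29 with an unadjusted p of 0.0540 (limma). There PRDM1, at -0.44 with an unadjusted p of 0.0045, took its place in the lower count.

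Over all probe sets the count called was 4, and 0 to 3 with each array left out, 1 with the replicate block, 7 after quantile normalization again, 40 without dim probe sets, 39 with a variance trend, 2256 with array weights and 3433 at an unadjusted p under 0.05; with PBS replicate 2 and FGF2 replicate 2 both left out it was 0. Of probe sets past an unadjusted p of 0.05, 62.7% were higher, and 48.8% after quantile normalization again. Deviations from the group mean correlated at -0.25, -0.002 and -0.18 between same-numbered arrays. Between arrays of different numbers they correlated at -0.19 to 0.33. These few correlations cannot decide whether the numbers pair the arrays by day. No member was called with the replicate block or without it, so the calls do not decide it either.

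With each array left out the difference SALL4 minus SALL1 lay between -0.53 and 0.010, the latter without PBS replicate 2. Small values of other named genes turned: PRDM10 to -0.058, MYC to 0.11, PRRX1 to -0.15 and CDH5 to 0.016 with array weights, PIWIL1 to -0.013 after quantile normalization again, and HOXD11 to -0.024 without PBS replicate 2 and FGF2 replicate 2. With arrays left out the lowest and highest values were -0.024 and 0.13 for HOXD11, -0.028 and 0.098 for SOX8, -4.78e-04 and 0.061 for ETS1, -0.11 and 5.93e-04 for FLI1, and -0.070 and 0.064 for CDH5. Probe sets near background, PRDM1 and the dimmer one of SALL1, limit what their values show; the cause of these turns was not tested.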

Other observations

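SALL4, TFAP2C and PRDM1 are also known from primordial germ cells of the mouse, and germ cell genes were read for that reason. Of the 9 that were measured, 2 were higher and 7 were lower, beside 7082 lower of all 13009 genes. The median of the 9 was -0.03 on the log2 scale, and the mean level was 3.81 to 3.91 on PBS and 3.77 to 3.82 on FGF2 arrays. DDX4, the vasa homologue that defines the lineage, was at background with means of 2.38 and 2.34. TDRD5, TDRD9 and MAEL, like DDX4 among the lower genes, lay at background too. PIWIL1, the brightest of the list, had means of 6.01 and 6.05, DND1 gave -0.08, the RNA-binding gene DAZL -0.23 and the receptor gene KIT -0.30. These moved to -0.022 for DND1 without PBS replicate 2, -0.090 for DAZL without PBS replicate 3 and -0.14 for KIT without FGF2 replicate 2.

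Skeletal muscle genes were lower in 13 of 14 cases, beside 7082 of all 13009 genes. Among them were the myogenic factor genes MYOD1 at -0.50 ± 0.190, MYOG at -0.59 ± 0.163 and MYF5 at -0.29 ± 0.0997 (SE). Their adjusted p was 0.548, 0.443 and 0.516, and ACTC1 gave -0.24. Without PBS replicate 2 and FGF2 replicate 2, MYOD1 gave -0.28, MYOG -0.50, MYF5 -0.17 and ACTC1 -0.25. Endothelial genes were divided, with 5 of 14 higher and 9 lower and a mean level of 8.18 to 8.35 on PBS and 8.24 to 8.33 on FGF2 arrays. The VEGF receptor gene KDR gave 0.55 ± 0.184 (SE; adjusted p = 0.506), the adhesion gene CDH5 -0.01, TEK -0.16 and FLI1 -0.04. KDR gave 0.26 and TEK -0.24 without PBS replicate 2 and FGF2 replicate 2. The 2 higher genes of the neural crest, Schwann and melanoblast list, SOX8 and ETS1, gave 0.03 each. Of its 10 lower genes FOXD3 gave -0.64, EDNRB -0.99 and SOX10 -0.78 ± 0.362 (SE), with an adjusted p of 0.612 for SOX10 (limma). SOX10 read 9.07 on PBS replicate 2 and 7.12 on FGF2 replicate 2. Its other values were closer, at 8.32 and 8.25 on PBS and 8.14 and 8.05 on FGF2 arrays. The avidin gene AVD, which stood on the macrophage and lymphoid list, was at background on all PBS arrays and at least 39.3-fold higher on FGF2 arrays. Which cells held its RNA was not tested. On the same list LAPTM5 gave 0.66 and CD74 0.60. Limb mesenchyme genes were divided, with 11 of 17 higher and 6 lower and a median of 0.07. At an unadjusted p under 0.05 there were 5 higher and 2 lower, together 41.2% beside 12.4% of all genes. All 17 lay above background, beside 9918 of all 13009 genes. LHX2 at 2.50 and SNAI2 at 0.89 had the smallest p of these 17. The study had named both, and HOXA11 and MEIS2, from the same arrays, so this share is no independent evidence.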
